A study of Mus musculus with 8 samples.

Results

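The 2 embryonic germ cell (EGC) lines, 4 and 7, were compared with 2 libraries of primordial germ cell-like cells (PGCLCs), which are 4 of the 8 mouse RNA-seq libraries in the series. The members were taken by their labels alone. EGC lines 4 and 7 were derived from primordial germ cells (PGCs) sorted from embryos at E9.5, carried the strain label Oct4gfpXCD1, were grown with serum and LIF on feeder fibroblasts, and were sampled at passage 6 with 500 cells a library. The PGCLCs were made from embryonic stem cells of the BVSC line (passage 21), which had been kept in 2i and LIF on laminin. They were turned into epiblast-like cells and then into floating aggregates, and 300 to 500 cells went into each library. BVSC cells carry fluorescent reporters for Prdm1 (Blimp1) and Dppa3 (Stella), and Oct4-GFP cells carry one for Pou5f1. The remaining libraries, 2 of E9.5 PGCs of the Oct4gfpXCD1 strain at passage 0 and 2 of iPGCs made from passage 21 BVSC cells in hanging drops, entered the fit and give the context below.

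Strain, origin, passage and culture all differed between EGC lines and PGCLCs and cannot be told apart. Each EGC library is a separate line. The labels call the 2 libraries of a group biological replicates but do not say whether the PGCLCs came from separate differentiations, and if they did not, p-values measure only the spread between these libraries. Whether the PGCLCs were sorted is not given in the sources used here.

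PGCs are the founder cells of the germ line. They are specified in the epiblast by BMP signals and depend on Prdm1, Prdm14 and Tfap2c. PGCLCs are made from pluripotent stem cells by way of an epiblast-like state and the same signals. EGCs arise when PGCs are cultured until they return to a self-renewing pluripotent state, in which they resemble embryonic stem cells.

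In the labelled cell types, both EGC lines and both PGCLC libraries held the pluripotency factors Pou5f1 (48.6 to 327 FPKM), Nanog (45.3 to 82.6 FPKM) and Sox2 (10.8 to 19.1 FPKM). FPKM is the number of fragments for each kilobase of transcript, scaled to the depth of a library. The PGC factors Prdm1, Tfap2c and Dppa3 were each at least 30.4 FPKM in both PGCLC libraries. Other PGC genes were lower there, with Prdm14 at 20.8 and 6.78 FPKM, Nanos3 at 6.98 and 2.30 FPKM and Dnd1 at 4.60 and 2.70 FPKM. In EGC lines 4 and 7, Prdm1 stood at 2.34 and 2.20 FPKM and Tfap2c at 5.77 and 5.99 FPKM. Dppa3 was still at 40.3 and 100.6 FPKM in these lines.

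A small set of genes passed the threshold for a difference between the 2 cell types. Of 11083 tested genes, which reached 1 FPKM in at least 2 of the 8 libraries, 11 were called at an adjusted p below 0.05 by limma, 7 higher and 4 lower in EGC lines. These are 0.0993% of the tested genes, 0.0632% in the higher and 0.0361% in the lower direction. The 7 genes that rose were the protein-coding gene Adam23, the non-coding RNA host gene Mirg, the microRNA genes Mir379, Mir758 and Mir1951, the short non-coding RNA PRINS and the processed pseudogene Rps3a3. Of these 7, PRINS, Mir379, Mir758, Mir1951 and Rps3a3 met the minimum of 1 FPKM in 2 libraries through the EGC lines alone. The number and share called higher thus depend in part on that filter. The 4 that fell were Hspa8, Zc3hav1, Tnnt3 and Rpl3, all protein-coding. The smallest called log2 difference was 3.76 in size, and some larger ones were not called, since the spread between libraries differed from gene to gene. PRINS, Mir379, Mir758 and Mir1951 were listed at 0 in every library outside the EGC lines. Their p-values therefore rest on the spread of the 2 EGC libraries and on the moderation by limma.

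The calls rested on both PGCLC libraries. Without PGCLC library 1 or without PGCLC library 2, limma called 0 genes, with 882 and 1634 genes at an unadjusted p below 0.05, against 1538 with all libraries. Without EGC line 4 it called 5 genes, all higher in EGCs, and without line 7 it called 9, each time with 4 of the 11 among them. Without iPGC library 1 or 2 it called 12 or 11, each with 7 of the 11, and a fit of the 4 compared libraries alone called 12, with 6 of the 11. Without PGC library 1 or 2 it called 39 or 35, among them all 11. When the p-values were adjusted over protein-coding genes alone, 0 genes were called, with 1505 at an unadjusted p below 0.05. The calls of the 5 protein-coding genes thus depended on adjustment together with the non-coding entries.

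Most genes lay lower in the EGC lines on this scale. The median difference, EGC minus PGCLC in log2(FPKM + 1), was -0.38, and 66.2% of tested genes had a negative difference. Both EGC lines lay below both PGCLC libraries for 34.2% of tested genes and above both for 11.8%. With the libraries set to equal medians, these shares were 19.8% and 23.6%, and 7 genes were called higher and 1 lower. For most gene lists and some genes, differences are therefore given below also relative to the all-gene median. A difference given without the relative value is to be read against -0.38.

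**Figure D1:**
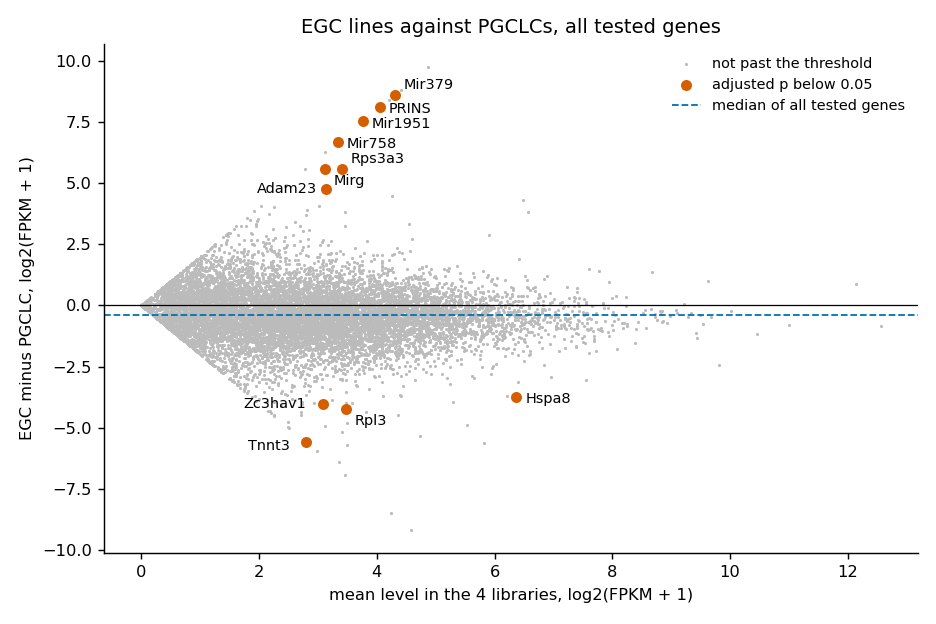
Difference between EGC lines and PGCLCs, EGC minus PGCLC in log2(FPKM + 1), against the mean level of each of the 11083 tested genes in the 4 libraries. The 11 called genes are in orange and named, and the dashed line marks the median difference of -0.38, below 0.

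In depth, the PGCLC libraries held about 7.57 to 8.33 and 14.7 to 17.4 M reads, and EGC lines 4 and 7 about 14.0 to 15.5 and 16.2 to 17.5 M reads, estimated from the steps between low FPKM values. At least 1 FPKM was reached by 9157 and 9722 genes in PGCLCs and by 8677 and 9280 in EGCs. The deposited unit has no counts, so these depths are approximate. Among 4145 genes with a mean of at least 10 FPKM, the median absolute log2 difference was 0.58 between the lines, 0.65 between the PGCLC libraries and 0.70 between the group means. The Y-linked gene Eif2s3y was listed at 0 in EGC line 4 and at 22.9 FPKM in line 7, against 21.3 and 30.5 FPKM in PGCLCs, so the lines also differ from each other in a Y-linked transcript.

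Among the protein-coding genes, Adam23 alone was called higher. Adam23 encodes a membrane protein of the ADAM family that lacks protease activity, binds integrins and is best known from the nervous system (chromosome 1, GRCm38 63445891 to 63596276, plus strand). It was at 0.303 and 1.19 FPKM in PGCLC libraries 1 and 2 and at 37.8 and 52.0 FPKM in EGC lines 4 and 7. The log2 difference was 4.74 with a standard error (SE) of 0.61 (limma adjusted p = 0.0400), or 5.13 relative to the median gene. The 4 libraries of PGCs and iPGCs lay between 0.131 and 1.95 FPKM, so both EGC lines stood above all 6 other libraries.

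Hspa8 encodes the constitutive cytosolic chaperone Hsc70 (chromosome 9, 40800984 to 40810087, plus strand). It had 387 and 237 FPKM in the PGCLC libraries and 21.6 and 21.1 FPKM in EGC lines 4 and 7. It fell by 3.76 on the log2 scale (SE 0.38, adjusted p = 0.0111), or by 3.38 relative to the median gene. PGCs had 174 and 149 FPKM and iPGCs 345 and 271 FPKM, so that the 2 EGC lines were the lowest of the 8 libraries and nearly equal to each other. The value is uncertain to the extent that reads are shared with processed copies of the gene, since how the authors divided such reads is not stated.

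Zc3hav1 encodes ZAP, an antiviral protein that binds CpG-rich RNA (chromosome 6, 38305286 to 38354603, minus strand). It had 30.2 and 36.6 FPKM in PGCLCs and 1.32 and 0.899 FPKM in EGC lines 4 and 7. It fell by 4.03 on the log2 scale (SE 0.49, adjusted p = 0.0360). PGCs (10.0 and 8.96 FPKM) and iPGCs (19.6 and 18.5 FPKM) lay between the PGCLC and EGC levels.

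Tnnt3 encodes the troponin T of fast skeletal muscle (chromosome 7, 142498836 to 142516009, plus strand). It had 63.9 and 35.2 FPKM in PGCLCs and was listed at 0 in both EGC lines (adjusted p = 0.0368). PGCs had 40.1 and 10.9 FPKM and iPGCs 4.01 and 3.65 FPKM, so it was above 0 in every library except those of the EGC lines.

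Rpl3 and Rps3a3 concern ribosomal protein sequences and were, like the 3 microRNA genes, named after their values were seen. Rpl3, which encodes a protein of the large ribosomal subunit, had 61.9 and 35.8 FPKM in PGCLCs and 1.19 and 2.02 FPKM in EGC lines 4 and 7 (log2 difference -4.22, SE 0.54, adjusted p = 0.0390). The pseudogene Rps3a3 had 0.848 and 0.258 FPKM in PGCLCs and 63.3 and 82.7 FPKM in EGCs (log2 difference 5.59, SE 0.58, adjusted p = 0.0111). Its parent gene Rps3a1 went the other way in level, with 96.0 and 53.8 FPKM in PGCLCs and 19.5 and 23.8 FPKM in EGC lines 4 and 7. Reads of such copies can be assigned to either, so both values are uncertain.

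PRINS is annotated as a non-coding RNA of 89 bases (chromosome 2, 20559804 to 20559892, plus strand). It was listed at 0 in both PGCLC libraries and had 258 and 288 FPKM in EGC lines 4 and 7 (adjusted p = 0.00256). It was also listed at 0 in all 4 libraries of PGCs and iPGCs. PRINS, Mir1951 and Rps3a3 met the minimum of 1 FPKM in 2 libraries through the EGC lines alone. That they could be tested and called thus depended on their being high in the EGC lines. Of the 11 called genes, 4 have an exonic length of 300 bases or less, and for such short genes FPKM depends on few reads and on the length correction.

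**Figure D2:**
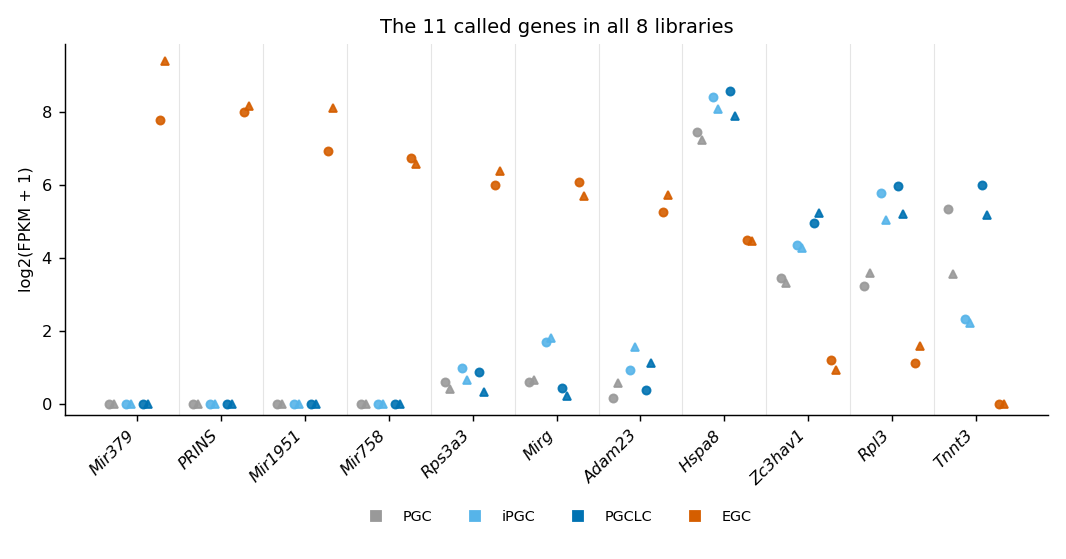
Level of the 11 called genes in log2(FPKM + 1), with the 2 libraries of each group as a circle (replicate 1 or EGC line 4) and a triangle (replicate 2 or EGC line 7). In the first 7 genes the EGC points lie above all other points, and in Hspa8, Zc3hav1, Rpl3 and Tnnt3 they lie below all others.

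A group of 3 called genes lay in the imprinted Dlk1-Dio3 region of chromosome 12. There, RNAs made from the maternal chromosome include Meg3, Rian and Mirg, the last a host transcript of many microRNA genes. The 3 called microRNA genes encode the mature sequences below, from RefSeq for GRCm38.p6, in which all 3 genes were found. They are printed because they identify the called entries, with the seed (bases 2 to 8) in capitals.
miR-379-5p: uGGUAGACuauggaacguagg
miR-379-3p: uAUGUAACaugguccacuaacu
miR-758-5p: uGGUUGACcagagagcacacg
miR-758-3p: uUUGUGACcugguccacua
miR-1951: gUAGUGGAgacugguguggcua

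No seed was shared among these 5 sequences. The seed of miR-379-5p is also that of miR-1193-5p, the seed of miR-379-3p that of miR-411-3p, and the seed of miR-758-5p that of miR-1197-5p, 3 microRNAs whose genes lie in the same cluster. The libraries were built from RNA amplified and sonicated to about 200 bases. They do not measure mature microRNAs, and the values stand for RNA that covers the microRNA gene.

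Mir379 (109709060 to 109709125, plus strand) was listed at 0 in both PGCLC libraries and had 222 and 677 FPKM in EGC lines 4 and 7 (adjusted p = 0.00295). Mir758 (109712810 to 109712890, plus strand) was listed at 0 in PGCLCs and had 107 and 94.5 FPKM in EGCs (adjusted p = 0.00295). Mirg (109729764 to 109749460, plus strand) had 0.350 and 0.164 FPKM in PGCLCs and 66.8 and 51.4 FPKM in EGC lines 4 and 7. It rose by a log2 difference of 5.57 (SE 0.56, adjusted p = 0.0111). Mirg has an exonic length of 7292 bases, so this call does not rest on a short gene. It was at most 2.52 FPKM in PGCs and iPGCs.

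The stretch from the start of Mir379 to the end of Mirg, 40.4 kb long, held 31 entries, of which 30 are microRNA genes. Of these 31 entries, 13 reached 1 FPKM in at least 1 EGC line and 5 in both. None (0) reached 1 FPKM in either PGCLC library. The test covered 5 entries, among them the 3 called genes. Mir379, Mir758 and Mir453 met the minimum of 1 FPKM in 2 libraries through the EGC lines alone, so the share of tested entries called is set by that filter. The 2 entries not called were Mir453, with 1632 and 80.1 FPKM in EGC lines 4 and 7 and listed at 0 in PGCLCs (adjusted p = 0.0534), and Mir544, with 945 and 213 FPKM in EGCs (adjusted p = 0.204). Mir544 also had 761 FPKM in PGC library 1, whereas it was listed at 0 in PGC library 2.

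The microRNA entries above 1 FPKM were in part not the same in the libraries of the 2 lines. These entries are short, so their FPKM depends on few reads, and there is 1 library a line. An exact 0 can also be a failed estimate, so a difference between the lines themselves was not tested. The longer Mirg had 66.8 and 51.4 FPKM in lines 4 and 7. Mir411 (342 FPKM), Mir329 (46.7 FPKM) and Mir3072 (443 FPKM) were above 1 FPKM in line 4 and listed at 0 in line 7. Mir1193, Mir666, Mir667, Mir654 and Mir382 had 29.9 to 144 FPKM in line 7 and were listed at 0 in line 4. Mir382 and Mir3072 lie within Mirg on the same strand, so reads of one may be counted for the other.

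The upstream side of the region held almost no signal in the table. None (0) of the 30 entries before Mir379 reached 1 FPKM in an EGC or PGCLC library. Meg3, 137.3 kb upstream of Mir379, was listed at 0 in both PGCLC libraries and in EGC line 4, and had 0.00378 FPKM in line 7. Rian and Dlk1 were listed at 0 in all 8 libraries. An exact 0 in this table can be a failed estimate, so it does not show that a gene was not transcribed.

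**Figure D3:**
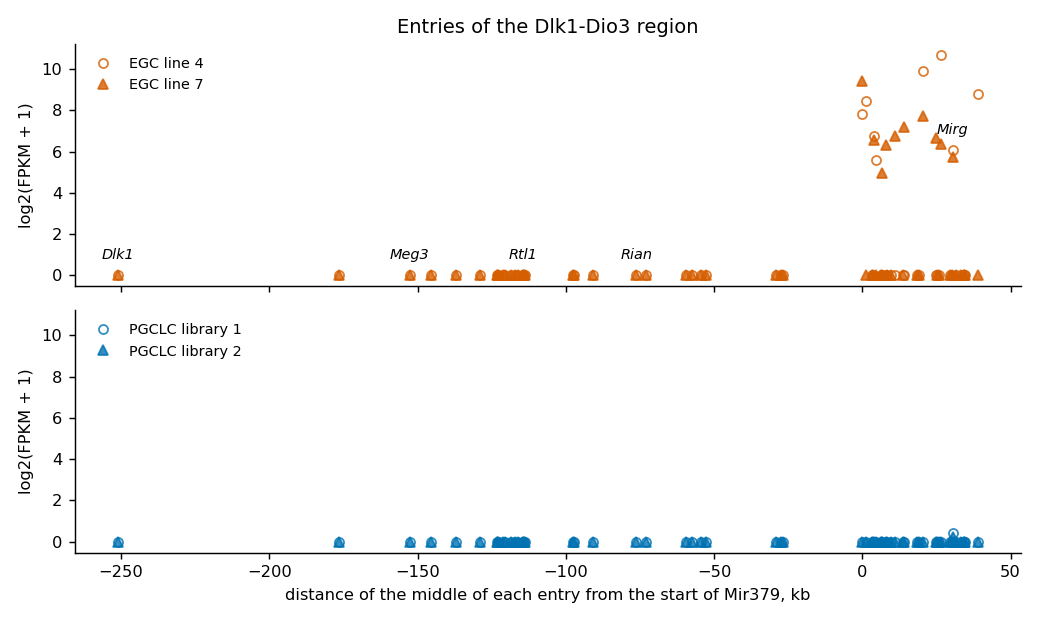
Level of the entries of the Dlk1-Dio3 region, in log2(FPKM + 1), against their distance in kb from the start of Mir379, for EGC lines (top) and PGCLC libraries (bottom). Mir1247 and Dio3, which lie far downstream and were listed at 0 in all 8 libraries, are not drawn. Entries at 1 FPKM or more stand only between 0 and 40.4 kb, in the EGC lines, and all entries upstream lie at or near 0 in both groups.

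The remaining called microRNA gene, Mir1951 (chromosome 2, 115638725 to 115638813, plus strand), lies outside this region. It was listed at 0 in PGCLCs and had 122 and 277 FPKM in EGC lines 4 and 7 (adjusted p = 0.00295). It was listed at 0 in all PGC and iPGC libraries as well, so it passed the filter through the EGC lines alone.

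Tnnt3 lies 59.52 kb from H19, a maternally expressed non-coding RNA, and H19 lies 72.62 kb from Igf2, a paternally expressed growth factor gene. This neighbourhood was looked at after the call of Tnnt3 was seen. Of its 13 entries 7 were tested. Apart from Tnnt3, which led to the choice, limma called 0 of the 6 others, with 4 at an unadjusted p below 0.05. These 4 were lower in EGC lines, as were 1235 of all 11083 tested genes at that level. Nothing is read from this count. H19 had 117 and 244 FPKM in PGCLCs and 0.615 and 9.82 FPKM in EGC lines 4 and 7 (log2 difference -5.35, SE 0.86, adjusted p = 0.0888). Igf2 had 4.24 and 87.7 FPKM in PGCLCs and 0.0907 and 0.396 FPKM in EGCs (adjusted p = 0.249). Both thus lay lower in both lines without passing the threshold, and the PGCLC libraries differed widely from each other in Igf2.

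Lsp1, a leukocyte actin-binding protein gene 3.968 kb from Tnnt3, had 62.0 and 5.51 FPKM in PGCLCs, 0.0420 FPKM in EGC line 4 and a listed 0 in line 7 (adjusted p = 0.245). Ctsd, which encodes the lysosomal protease cathepsin D, had 44.1 and 62.0 FPKM in PGCLCs and 17.9 and 22.1 FPKM in EGCs (adjusted p = 0.243). In both genes the EGC lines lay below the PGCLC libraries, as they did in 34.2% of all tested genes.

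Beyond the called genes, the genes next in order of unadjusted p did not pass the threshold and are given as values. Akap7, an anchoring protein of protein kinase A, had 0.667 and 0.988 FPKM in PGCLCs and 29.5 and 23.3 FPKM in EGC lines 4 and 7 (log2 difference 3.90, adjusted p = 0.0813). Trh, which encodes the precursor of thyrotropin-releasing hormone, had 6.75 and 1.14 FPKM in PGCLCs and 109 and 72.9 FPKM in EGCs (4.47, adjusted p = 0.106). Both EGC lines were above all 6 other libraries in either gene.

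Lefty1, a secreted inhibitor of Nodal, had 2.94 FPKM and a listed 0 in PGCLC libraries 1 and 2 and 32.6 and 31.8 FPKM in EGC lines 4 and 7 (adjusted p = 0.119). The gap junction gene Gja1 had at most 0.157 FPKM in PGCLCs and 7.91 and 15.2 FPKM in EGCs (adjusted p = 0.120). The Wnt-binding protein gene Sfrp2 had at most 0.489 FPKM in PGCLCs and 8.56 and 14.7 FPKM in EGCs (adjusted p = 0.121). Eno2, Hist2h2bb, Dok2 and NBR2 complete the 12 on the higher side, with adjusted p between 0.115 and 0.128. NBR2 had no coordinates in the annotation used and varied from 1202 to 607 FPKM between the lines.

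On the lower side, Calcoco2 came nearest to the threshold. It encodes an autophagy receptor (NDP52) and had 99.9 and 64.2 FPKM in PGCLCs and 0.0414 and 1.37 FPKM in EGC lines 4 and 7 (log2 difference -5.69, SE 0.77, adjusted p = 0.0523). Acadvl, a mitochondrial enzyme of fatty acid oxidation, had 107 and 85.9 FPKM in PGCLCs and 1.93 and 5.52 FPKM in EGCs (-4.47, adjusted p = 0.0575). Nfe2l1, a transcription factor that controls proteasome genes, had 168 and 133 FPKM in PGCLCs and 25.3 and 24.2 FPKM in EGCs (-2.55, adjusted p = 0.0658).

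Nfe2l1 differed least in fold among these and was nearly equal in the 2 lines. Aard, Rab3b, Pla2g10, Aqp3, Stard10 and Mreg filled the other places, with adjusted p between 0.0658 and 0.0881. Aqp3, a water and glycerol channel gene, had 16.7 and 17.2 FPKM in PGCLCs and 0.625 and 0.363 FPKM in EGC lines 4 and 7. Mreg, a melanosome transport gene, had 85.6 and 72.3 FPKM in PGCLCs and 9.34 and 11.7 FPKM in EGCs.

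The PGC and iPGC libraries give a context for the 24 named genes. The genes were chosen for extreme values in the EGC lines, so where other groups lie relative to those lines is in large part built in. The matching shares over all tested genes were not determined. Nothing is therefore read from the counts of PGC or iPGC libraries above or below the EGC lines. Among the 12 higher in EGC lines, both PGC libraries were below both EGC lines in 11, as were both iPGC libraries in 11. Of these 12, 0 differed between PGCLCs and PGCs at an adjusted p below 0.05, where limma called 1.06% of tested genes (117 genes, 104 higher and 13 lower in PGCLCs). Also 0 differed between PGCLCs and iPGCs, where it called 0.018% (2 genes, with 519 at an unadjusted p below 0.05).

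Among the 12 lower in EGC lines, both iPGC libraries lay above both EGC lines in 12 and both PGC libraries in 7, while both PGC libraries lay below both EGC lines in 3. Of these 12, 5 were called higher in PGCLCs than in PGCs, namely Calcoco2, Acadvl, Rab3b, Aqp3 and Mreg. Acadvl, for example, was at most 0.0471 FPKM in the PGC libraries. The comparison with PGCs shares the PGCLC libraries with that of EGCs and PGCLCs, so these counts are not independent of how the genes were chosen.

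Gene lists were set beside the whole table by 3 descriptions, the number called, the median log2 difference and the number of genes whose libraries did not overlap. Over all 33 lists, 481 genes were tested and 5 called, Adam23 and Mirg higher and Hspa8, Zc3hav1 and Tnnt3 lower, against 0.0993% of all tested genes. The lists were drawn up with earlier results known, so nothing is read from that count. A count of EGC lines below PGCLCs is to be read against 34.2% of all tested genes (19.8% with equal medians), and a count above against 11.8% (23.6%).

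Genes of early PGCs lay lower in the EGC lines almost throughout. Of 14 tested, 0 passed, with the median at -2.01 (-1.63 relative to all genes, -1.57 with equal medians). Both EGC lines were below both PGCLC libraries in 13 (10 with equal medians). Cd9 counted among the 13 at a difference of -0.25, which lay 0.14 above the median gene. Prdm1, which encodes the repressor Blimp1, had 40.6 and 33.0 FPKM in PGCLCs and 2.34 and 2.20 FPKM in EGC lines 4 and 7 (log2 difference -3.53, SE 0.57, adjusted p = 0.0888). The 2 lines were close to each other and far from both PGCLC libraries.

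Dppa3, which encodes Stella, a protein that protects DNA methylation in the early embryo, had 726 and 400 FPKM in PGCLCs and 40.3 and 100.6 FPKM in EGC lines 4 and 7 (-3.06, SE 0.51, adjusted p = 0.0997). Tfap2c, a transcription factor of PGC specification, had 37.0 and 30.4 FPKM in PGCLCs and 5.77 and 5.99 FPKM in EGCs (-2.33, adjusted p = 0.120). The membrane protein gene Ifitm1 had 309 and 203 FPKM in PGCLCs and 14.5 and 50.7 FPKM in EGCs (-3.15, adjusted p = 0.120). PGCs and iPGCs were nearer to PGCLCs in all 3 genes, with Dppa3 at 317 to 574 FPKM in these 4 libraries.

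Prdm14, a regulator that acts beside Prdm1, had 20.8 and 6.78 FPKM in PGCLCs and 0.949 and 1.38 FPKM in EGCs. Kit, the receptor through which PGCs survive and migrate, had 49.3 and 30.4 FPKM in PGCLCs and 9.59 and 11.3 FPKM in EGC lines 4 and 7 (adjusted p = 0.242). Elavl2 was the 1 gene of the list above in both lines, with 9.09 and 4.43 FPKM in PGCLCs and 26.1 and 13.4 FPKM in EGCs. Prdm1 and Dppa3 drive the reporters of the BVSC line, and a part of any sort on them in their difference was not tested.

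**Figure D4:**
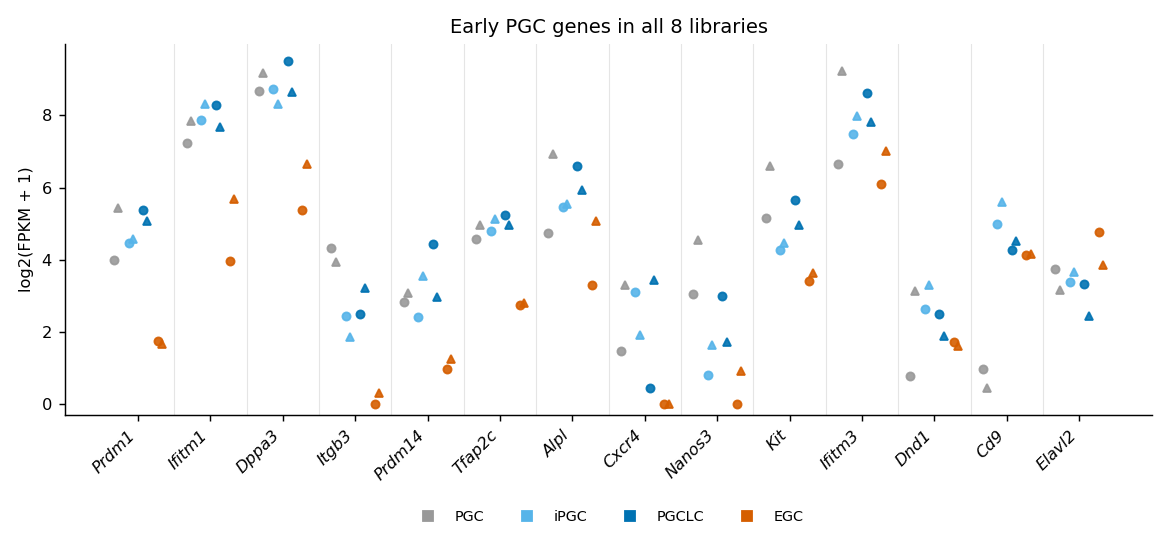
Level of the 14 tested early PGC genes in log2(FPKM + 1) in all 8 libraries, ordered by the difference between EGC lines and PGCLCs, with circles for replicate 1 or EGC line 4 and triangles for replicate 2 or EGC line 7. Both orange EGC points lie below both dark blue PGCLC points in 13 of the 14 genes, and above in Elavl2.

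Of 16 tested later germ cell genes 0 passed, the median was -0.64 (-0.25 relative), and both EGC lines were below both PGCLC libraries in 8 (7 with equal medians) and above in 0 (1). Rnf17, a tudor domain gene of germ cells, had 18.3 and 11.2 FPKM in PGCLCs and 4.32 and 4.03 FPKM in EGC lines 4 and 7 (adjusted p = 0.310). Dazl, an RNA-binding protein gene of germ cell commitment, had 11.9 and 9.65 FPKM in PGCLCs and 1.12 and 0.805 FPKM in EGC lines 4 and 7 (adjusted p = 0.155). Asz1, a gene of the piRNA pathway, had 10.8 and 4.59 FPKM in PGCLCs and was listed at 0 in both lines (adjusted p = 0.120).

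Core pluripotency genes were present in both cell types. Of 15 tested, 0 passed, with a median of -0.54 (-0.15 relative), and both EGC lines lay below both PGCLC libraries in 9 (6 with equal medians) and above in 2. Nanog had 81.2 and 82.6 FPKM in PGCLCs and 46.9 and 45.3 FPKM in EGC lines 4 and 7 (log2 difference -0.81, -0.43 relative, adjusted p = 0.497). Lin28a, a repressor of let-7 processing, had 11.2 and 6.87 FPKM in PGCLCs and 38.5 and 48.3 FPKM in EGCs (2.17, adjusted p = 0.184).

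Dppa2, a chromatin regulator, had 12.6 and 18.8 FPKM in PGCLCs and 3.86 and 1.69 FPKM in EGC lines 4 and 7 (adjusted p = 0.204). Pou5f1 differed more between the PGCLC libraries, at 327 and 48.6 FPKM, than between EGC lines, at 83.5 and 65.8 FPKM. Of 18 tested genes of naive pluripotency 0 passed, the median was -0.52 (-0.14 relative), and both EGC lines lay below in 6 and above in 1 (3 and 3 with equal medians). Klf2 had 93.1 and 22.8 FPKM in PGCLCs and 5.14 and 9.13 FPKM in EGCs, while Zfp42 (Rex1) had 8.33 and 5.37 FPKM in PGCLCs and 17.0 and 25.1 FPKM in EGCs.

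Genes of Nodal signalling and of the primed epiblast lay on the other side. Of 17 tested 0 passed, the median was 0.58 (0.97 relative), and both EGC lines were above both PGCLC libraries in 7 (9 with equal medians) and below in 1. The ligand gene Nodal had 5.46 and 3.62 FPKM in PGCLCs and 27.5 and 8.47 FPKM in EGC lines 4 and 7. Its co-receptor gene Tdgf1 had 95.7 and 64.0 FPKM in PGCLCs and 189 and 145 FPKM in EGCs.

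Lefty1, described above, had the largest difference of the list. Otx2, a factor of the primed epiblast, did not separate the groups, with 29.0 and 0.487 FPKM in PGCLCs and 12.6 and 5.95 FPKM in EGCs.

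The genes that write DNA methylation lay in part above and in part below. Of 24 tested genes of DNA methylation and demethylation 0 passed, the median was -0.28 (0.10 relative), with both EGC lines above in 3 and below in 6 (6 and 4 with equal medians). The de novo methyltransferase genes stood higher in both EGC lines. Dnmt3b had 11.6 and 8.44 FPKM in PGCLCs and 66.1 and 38.8 FPKM in EGCs (log2 difference 2.24, adjusted p = 0.274), and Dnmt3a 24.0 and 16.8 FPKM in PGCLCs and 59.5 and 57.8 FPKM in EGCs (1.498, adjusted p = 0.315). Dnmt1, the maintenance methyltransferase gene, had 67.9 and 46.1 FPKM in PGCLCs and 25.3 and 24.0 FPKM in EGCs (-1.15, adjusted p = 0.316), which is -0.77 relative to all genes.

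Imprinted genes lay on both sides. Of 14 tested maternally expressed genes 1, Mirg, passed, against 0.0993% of all tested genes, with a median of -0.35 (0.04 relative). Of 18 tested paternally expressed genes 0 passed, with a median of 0.35 (0.74 relative). Peg3 had 105 and 79.4 FPKM in PGCLCs and 28.3 and 13.0 FPKM in EGC lines 4 and 7 (adjusted p = 0.149). Nnat had 0.798 and 3.21 FPKM in PGCLCs and 23.4 and 12.7 FPKM in EGCs (adjusted p = 0.194), and Snrpn had 8.73 and 8.05 FPKM in PGCLCs and 25.2 and 22.7 FPKM in EGCs.

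Among signalling lists, BMP genes had 17 tested members of which 0 passed, a median of -0.87 (-0.49 relative), and both EGC lines below in 6 and above in 0 (4 and 2 with equal medians). The BMP target Id1 had 2.46 and 4.93 FPKM in PGCLCs and was listed at 0 in both EGC lines (adjusted p = 0.228). Id3 had 23.4 and 17.7 FPKM in PGCLCs and 0.259 and 2.72 FPKM in EGC lines 4 and 7 (adjusted p = 0.321). The ligand gene Bmp4 had 22.4 and 10.3 FPKM in PGCLCs and 4.37 and 1.33 FPKM in EGCs.

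In the FGF list 0 of 19 tested genes passed (median -0.43, -0.05 relative). The receptor gene Fgfr2 had 28.8 and 29.5 FPKM in PGCLCs and 0.358 and 4.94 FPKM in EGC lines 4 and 7 (log2 difference -3.41, adjusted p = 0.128). Fgf8 was listed at 0 in both PGCLC libraries and had 2.89 and 3.31 FPKM in EGCs. Of 14 tested genes of LIF and Stat3 signalling 0 passed (median -0.79, -0.40 relative), with both EGC lines below in 8 (5 with equal medians). The shared receptor gene Il6st had 76.6 and 50.1 FPKM in PGCLCs and 13.6 and 23.6 FPKM in EGCs, which were grown with LIF, while Stat3 had 28.8 and 14.9 FPKM in PGCLCs and 32.3 and 45.03 FPKM in EGCs.

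Heat shock chaperone genes had 21 tested members, of which 1, Hspa8, passed, against 0.0361% of all tested genes called lower. The median was -0.62 (-0.24 relative), and both EGC lines were below both PGCLC libraries in 14 (8 with equal medians) and above in 0. Hsp90aa1, the inducible cytosolic Hsp90 gene, had 1264 and 810 FPKM in PGCLCs and 365 and 589 FPKM in EGC lines 4 and 7 (log2 difference -1.12, adjusted p = 0.284). The co-chaperone gene Stip1 had 84.3 and 117 FPKM in PGCLCs and 43.6 and 48.0 FPKM in EGCs. The difference of Hspa8 was thus 3.38 below the median gene, that of Hsp90aa1 0.74 below it.

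Of 25 tested genes of oxidative phosphorylation 0 passed, 23 had a negative difference and both EGC lines were below in 12 (7 with equal medians). Their median of -0.64 was -0.26 relative to all genes. Of 24 tested glycolysis genes 0 passed, with a median of 0.14 (0.53 relative). Both EGC lines were above in 5 and below in 5 (12 and 3 with equal medians). Pfkp lay lower, with 92.5 and 136 FPKM in PGCLCs and 43.2 and 45.5 FPKM in EGC lines 4 and 7 (adjusted p = 0.295). Ldha, the lactate dehydrogenase A gene, had 45.3 and 131 FPKM in PGCLCs and 175 and 185 FPKM in EGC lines 4 and 7 (adjusted p = 0.390). Eno2, a neuronal form of enolase, had a listed 0 and 0.577 FPKM in PGCLCs and 13.3 and 8.90 FPKM in EGCs (adjusted p = 0.115).

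Among 16 tested genes of the interferon response and antiviral defence 1, Zc3hav1, passed (median -0.27, 0.12 relative), against 0.0361% of all tested genes called lower. The interferon receptor gene Ifnar1 had 13.0 and 19.4 FPKM in PGCLCs and 1.83 and 2.47 FPKM in EGC lines 4 and 7 (adjusted p = 0.175). Tapbp, which loads peptides on MHC class I, had 19.5 and 14.7 FPKM in PGCLCs and 1.42 and 2.59 FPKM in EGCs (adjusted p = 0.188). The list as a whole did not lie apart, with both EGC lines below in 5 and above in 1 (4 and 3 with equal medians).

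In the cell cycle and Polycomb lists 0 of 25 and 0 of 29 tested genes passed, with medians of -0.21 and -0.34 (0.17 and 0.04 relative). Cbx7, a Polycomb subunit gene of pluripotent cells, had 24.5 and 18.6 FPKM in PGCLCs and 139 and 186 FPKM in EGC lines 4 and 7 (log2 difference 2.86, adjusted p = 0.196). Ccnd1, the cyclin D1 gene, had 24.8 and 1.08 FPKM in PGCLCs and 89.3 and 59.6 FPKM in EGCs (adjusted p = 0.327), and Ccnd3 had 66.4 and 143 FPKM in PGCLCs and 20.6 and 15.5 FPKM in EGCs (adjusted p = 0.306).

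Markers of other cell types were examined as lists. Of 11 tested neural genes 1, Adam23, passed, against 0.0632% of all tested genes called higher. The median was 0.84 (1.22 relative), and both EGC lines were above both PGCLC libraries in 6 (7 with equal medians) and below in 1, Crabp1. Stmn2, a neuronal tubulin-binding protein gene, had 1.87 and 3.43 FPKM in PGCLCs and 38.2 and 27.9 FPKM in EGC lines 4 and 7 (adjusted p = 0.144), and Pax6 had 0.162 FPKM and a listed 0 in PGCLCs and 5.29 and 4.79 FPKM in EGCs (adjusted p = 0.155). Crabp1, a retinoic acid-binding protein gene, had 3.94 and 8.201 FPKM in PGCLCs and a listed 0 and 1.93 FPKM in EGC lines 4 and 7 (adjusted p = 0.315). The summed level of the list was 28.7 and 46.4 FPKM in PGCLCs and 145 and 116 FPKM in EGCs. In EGC lines 4 and 7 this sum includes Adam23 itself at 37.8 and 52.0 FPKM, beside Stmn2. Members that overlapped between the groups included Map2, with 6.06 and 13.7 FPKM in PGCLCs and 6.99 and 1.71 FPKM in EGC lines 4 and 7. The part of the list in the rise of Adam23 was not tested.

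The sarcomere list, which holds Tnnt3, had 13 tested genes of which 1 passed, against 0.0361% of all tested genes called lower. Both EGC lines were below in 2 and above in 2 (1 and 5 with equal medians). Its summed level was 1038 and 275 FPKM in PGCLCs and 231 and 436 FPKM in EGC lines 4 and 7. Of this, Mylpf alone had 833 and 140 FPKM in PGCLCs and 48.4 and 314 FPKM in EGC lines 4 and 7. The heart troponin gene Tnnt2 was at most 0.143 FPKM in these 4 libraries. The heart troponin gene Tnni3 had 16.8 and 25.4 FPKM in PGCLCs and 34.6 and 9.68 FPKM in EGCs. EGC lines were grown on feeder fibroblasts. Of 19 fibroblast markers 7 were tested and 0 passed, with both EGC lines above in 2, Tagln and Thy1, and below in 0 (median 0.35, 0.74 relative). Their sum was 8.22 and 15.0 FPKM in PGCLCs and 12.5 and 21.2 FPKM in EGCs, and 9 of the 19 were listed at 0 in both lines. Tagln had 0.0898 and 0.0450 FPKM in PGCLCs and 2.80 and 2.80 FPKM in EGCs (adjusted p = 0.233), Thy1 was listed at 0 in PGCLCs and had 0.963 and 3.56 FPKM in EGCs (adjusted p = 0.318), and the collagen gene Col1a1 was at 0.0142 FPKM in line 4 and listed at 0 in line 7. The part of feeder cells in the differences was not tested.

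Of 12 endothelial markers 4 were tested and 0 passed, with both EGC lines below in 3. Tek, an angiopoietin receptor gene, had 11.96 and 21.5 FPKM in PGCLCs and 0.0438 and 0.197 FPKM in EGC lines 4 and 7 (adjusted p = 0.120), and Pecam1, which pluripotent cells also express, had 88.4 and 62.7 FPKM in PGCLCs and 16.2 and 15.2 FPKM in EGCs. The blood list summed to at most 3.80 FPKM in any of the 4 libraries. In bulk libraries, fewer cells of a type and less RNA per cell cannot be told apart.

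**Figure D5:**
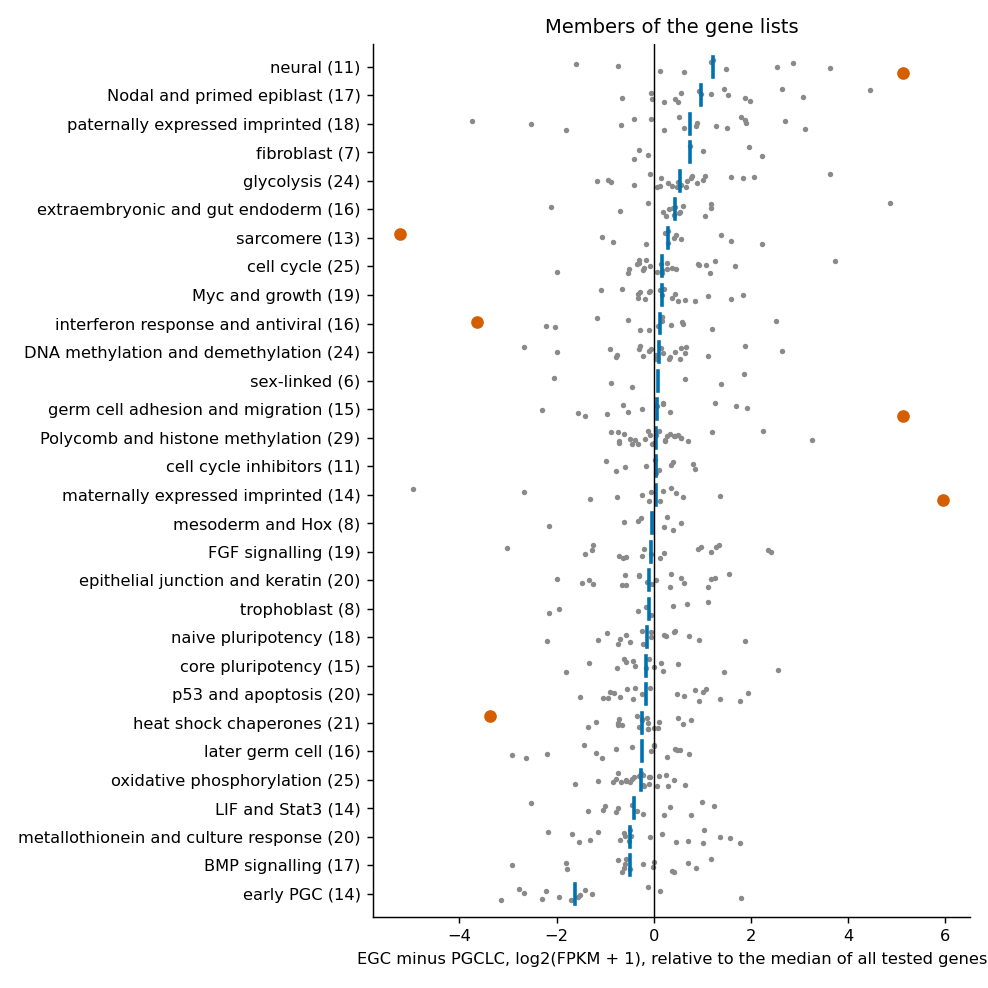
Difference of each tested gene between EGC lines and PGCLCs in log2(FPKM + 1), relative to the median of all tested genes, for the lists with at least 5 tested genes (number in brackets). Blue bars mark list medians and orange points the called genes, some of which stand in several lists, and the early PGC list lies farthest to the left at -1.63 and the neural list farthest to the right at 1.22.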

How the data were processed

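RNA from 8 libraries was amplified (Ovation RNA-Seq V2) and sequenced as 50-base single-end reads in 2 lanes, per the labels' protocols. FPKM values for 20171 entries make up the table the authors deposited. TopHat2, Cufflinks and GRCm38 (mm10) are named per the submitters' processing notes, and their versions, the annotation, any filter and the strand setting are not given in the sources used. For 15 identifiers with several entries, the entry with the highest mean was kept, leaving 20153. Of these, 19747 were found in GENCODE M21 (GRCm38), which gave coordinates and lengths and replaced 27 symbols turned into dates.

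The tested genes had 1 FPKM or more in 2 or more of the libraries. The test was limma 3.58.1 in R 4.3.3, on log2(FPKM + 1), with a variance trend and robust moderation. All 4 groups shared 1 spread (4 residual and a median of 4.53 prior degrees of freedom). Tests were two-sided, with Benjamini-Hochberg adjustment over all 11083 genes and a threshold of 0.05. A log2 difference understates the change of low genes. No difference is given against a group listed at 0. The fit was tested on simulated data. Depths were approximated from whole-read steps of low FPKM values, and recovered reads were not tested, since Cufflinks divides shared reads.

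The comparison and the 33 gene lists were chosen with earlier results of these data known. Named genes are the 12 largest rises and the 12 largest falls among called genes whose groups did not overlap and whose higher group had a mean of 10 FPKM or more. Predicted, ribosomal protein, microRNA, small nucleolar RNA and pseudogenes were skipped, and open places were filled by smallest unadjusted p. List members could be named with their values. Alternatives are given in the closing section. Adjustment over protein-coding genes alone was added after seeing the data. Spike-in values were not used here.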

Additional observations from a re-analysis of the deposited data

How the results depend on the processing

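Beside the 11 genes called (7 higher, 4 lower in EGC lines), leaving out each library in turn gave 0 to 39 genes, 0 to 13 higher and 0 to 26 lower. No filter gave 7 (1 lower), equal medians 1 lower, no variance trend 2 lower, a filter at 5 FPKM or library weights 8 lower, and protein-coding genes alone 0 in all, 0 higher and 0 lower (275 and 1230 at an unadjusted p below 0.05). The all-gene median of -0.38 was -0.49 at a pseudocount of 0.1, -0.22 at 5, -0.15 without a filter, -0.48 at 5 FPKM, 0.0555 at equal medians and 0.0079 after quantile normalization. Of 117 genes called for PGCLCs against PGCs, the count was 183 and 32 at pseudocounts of 0.1 and 5, 0 without a filter (limma, 2231 at an unadjusted p below 0.05), 54 at equal medians, 36 after quantile normalization, 21 with library weights and 0 to 289 leaving out 1 library. Against iPGCs, 2 became 1 at a pseudocount of 5 or after quantile normalization, 0 without a filter or with protein-coding genes alone, and 0 to 5 leaving out 1 library. A fit that leaves 1 library in a group assumes it varies like the others. Among called genes, Hspa8 kept its call in 11 of 18 alternatives (adjusted p 0.00700 to 0.146), Adam23 in 8 (0.0148 to 0.393), Zc3hav1 in 7 (0.0188 to 0.302), Tnnt3 in 7 (0.0117 to 0.407) and Rpl3 in 6 (0.0265 to 0.407). Mirg kept it in 13 of 17 (0.00528 to 0.153), Rps3a3 in 12 of 17, and PRINS, Mir379, Mir758 and Mir1951 in 15 of 17. All kept their direction, which for PRINS, Mir379, Mir758 and Mir1951 was set by a listed 0 in every library outside the EGC lines. Only the 2 EGC libraries gave these 4 genes a spread of their own, so their larger share of kept calls does not make them more certain. The cause of these changes was not tested. No paired analysis was possible because the EGC libraries carry line numbers 4 and 7 and share no number with the PGCLC libraries. With 2 libraries a group and amplified RNA from few cells, low genes and genes listed at 0 are the least certain.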

Other observations

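The 2 EGC lines differed from each other in single genes. Of 2257 protein-coding genes with at least 20 FPKM in either line, 245 differed by more than 2 on the log2(FPKM + 1) scale, 99 higher in line 7 and 146 higher in line 4. With 1 library a line there is no test, and the 4 genes below were picked from the ends of this ranking after their values were seen. Gzf1 had 85.9 FPKM in line 4 and 1.84 in line 7, against 61.7 and 16.7 FPKM in PGCLCs. Gpx2, a glutathione peroxidase gene, had 39.1 FPKM in line 4 and 0.356 in line 7 and was listed at 0 in both PGCLC libraries. Vkorc1, the vitamin K epoxide reductase gene, had 0.272 FPKM in line 4 and 23.8 in line 7, against 26.8 and 22.1 FPKM in PGCLCs. Nudt1, which removes oxidized nucleotides, was listed at 0 in line 4 and had 21.9 FPKM in line 7, against 56.01 and 10.7 FPKM in PGCLCs.

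Over log2(FPKM + 1) of the tested genes, Pearson's r between libraries was 0.784 for the 2 lines and 0.794 for the 2 PGCLC libraries, and 0.684 to 0.783 between a line and a PGCLC library. These are descriptions across genes, which are not independent, of libraries of unequal depth. EGC line 7 stood nearer to iPGC library 2 (r = 0.811) than to line 4.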
